A study of Arabidopsis thaliana with 11 samples.

Results

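The UGT genes, the plant family 1 UDP-glycosyltransferases, were followed in sorted root cells of Arabidopsis thaliana seedlings with and without salt. A gene was a member when an array probe set was paired with it alone and its symbol started with UGT and a digit. Under this rule 47 of the 13350 genes with a probe set of their own were members, in 11 subfamilies, and each had a single probe set. RefSeq lists 58 genes with such a symbol, so the 47 are not the whole family. A further 3 UGT probe sets were paired with several genes and were left out.

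Cortex cells carried the fluorescent marker of line J1551 and pericycle cells that of line J2731, and both were released as protoplasts and collected by flow sorting. All seedlings were 7 days old, and the plants of a tank formed a biological sample. Control seedlings of both lines grew without salt throughout, with 3 cortex and 2 pericycle arrays. Salt-treated seedlings, with 3 arrays per cell type, spent 5 days without and then 2 days with salt. The first salt day used 25 mM NaCl (CaCl2 added at 0.22 mM), and the second used 50 mM (CaCl2 at 0.375 mM). Each cell type thus came from a single marker line, so cell type and line cannot be told apart, and all arrays share the stress of digestion and sorting. The labels do not say what drives the markers.

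UDP-glycosyltransferases move a sugar, usually glucose, from a UDP-sugar to a small acceptor molecule. Plants use them to store or inactivate hormones such as abscisic acid, auxin, cytokinins and salicylic acid, to build flavonoid glycosides and glucosinolates, and to conjugate monolignols and foreign compounds before they are moved to the vacuole. Members of a subfamily, named by the number after UGT, are close in sequence, and many lie side by side on a chromosome, but related enzymes often take different acceptors.

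Values are log2 expression of a probe set, in which a difference of 1 is a factor of 2. Probe sets differ in brightness for the same amount of RNA, so levels were compared between arrays and not between genes. The limit for a dim gene was a mean of 2.81, below which 40% of the probe sets lay, and 15 of the 47 UGT genes were dim. For 12 of them every group mean was under the limit. Folds near that level can understate a change. Pericycle arrays varied more than cortex arrays: the median SD of a UGT gene was 0.157 in cortex control, 0.149 in cortex salt, 0.236 in pericycle control and 0.319 in pericycle salt samples. Replicate 1 of the pericycle salt group was unlike the other arrays (array weight 0.171). In 22 of 47 UGT genes (46.8%) it was the one farthest from its group's median, against 46% of all probe sets. The ratio of 3' to 5' signal for GAPDH, a sign of RNA quality, ran from 0.789 to 1.16 (log2) over the 11 arrays. That of actin ran from 0.0863 to 0.4 in cortex arrays, was 0.00984 and -0.487 in pericycle control and 0.481, 0.00302 and 0.841 in pericycle salt arrays, and its part in the pericycle values was not tested. Of 4 listed pericycle markers 1 was measured. This was LBD16, a pericycle gene of lateral root founder cells, which read 5.92 to 7.07 in pericycle and 1.93 to 2.47 in cortex arrays. Of 3 listed cortex markers 2 were measured, and neither passed between the cell types. AT1G62500 was dim throughout, with group means of 1.75 to 1.89, and AT1G09750 had means of 5.05 and 4.41 in cortex and 5.87 and 5.45 in pericycle without and with salt. The cortex label thus rests on the line. Because whole sorted samples were measured, a lower value cannot separate fewer cells of a type from less RNA per cell.

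Of the 47 UGT genes, 18 passed in at least 1 of the 5 comparisons and 29 in none, at an adjusted p under 0.05 over all 22746 probe sets. Salt in cortex cells raised 3 and lowered 3 (12.8% of UGT genes, where 4.16% of all probe sets were called, 1.43% up and 2.73% down). Salt in pericycle cells raised 1 and lowered 1 (4.26% against 1.99% of all probe sets, 1.04% up and 0.95% down). Without salt, 3 UGT genes were higher and 9 lower in pericycle than in cortex (25.5% against 14.9% of all probe sets, 6.71% higher and 8.18% lower). With salt 4 were higher and 8 lower (25.5% against 17.9%, 7.76% higher and 10.1% lower). The difference between the salt responses of the cell types passed for a single UGT gene (2.13% against 0.835%, 0.589% higher in pericycle and 0.246% lower). The 18 genes were all among the 32 that were not dim, and the background shares include dim probe sets, so nothing particular to the family is read from these shares.

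The arrays of the groups did not overlap for 8 UGT genes above and 12 below with salt in cortex (42.6%, against 34.1% of all probe sets), and for 8 above and 4 below with salt in pericycle (25.5% against 21%). Between the cell types they did not overlap for 6 above and 16 below without salt (46.8% against 44.5%) and for 11 above and 11 below with salt (46.8% against 34.2%). Groups this small often do not overlap, and the mentions of overlap below are to be read beside these shares.

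The median log2 difference of the UGT genes was -0.06 for salt in cortex, 0.01 for salt in pericycle, -0.05 for pericycle against cortex without salt and 0.00 with salt. Over all probe sets the same medians were 0.01, 0.00, 0.02 and 0.01. The genes that passed were in both directions in each comparison of groups and came from several subfamilies.

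**Figure D1:**
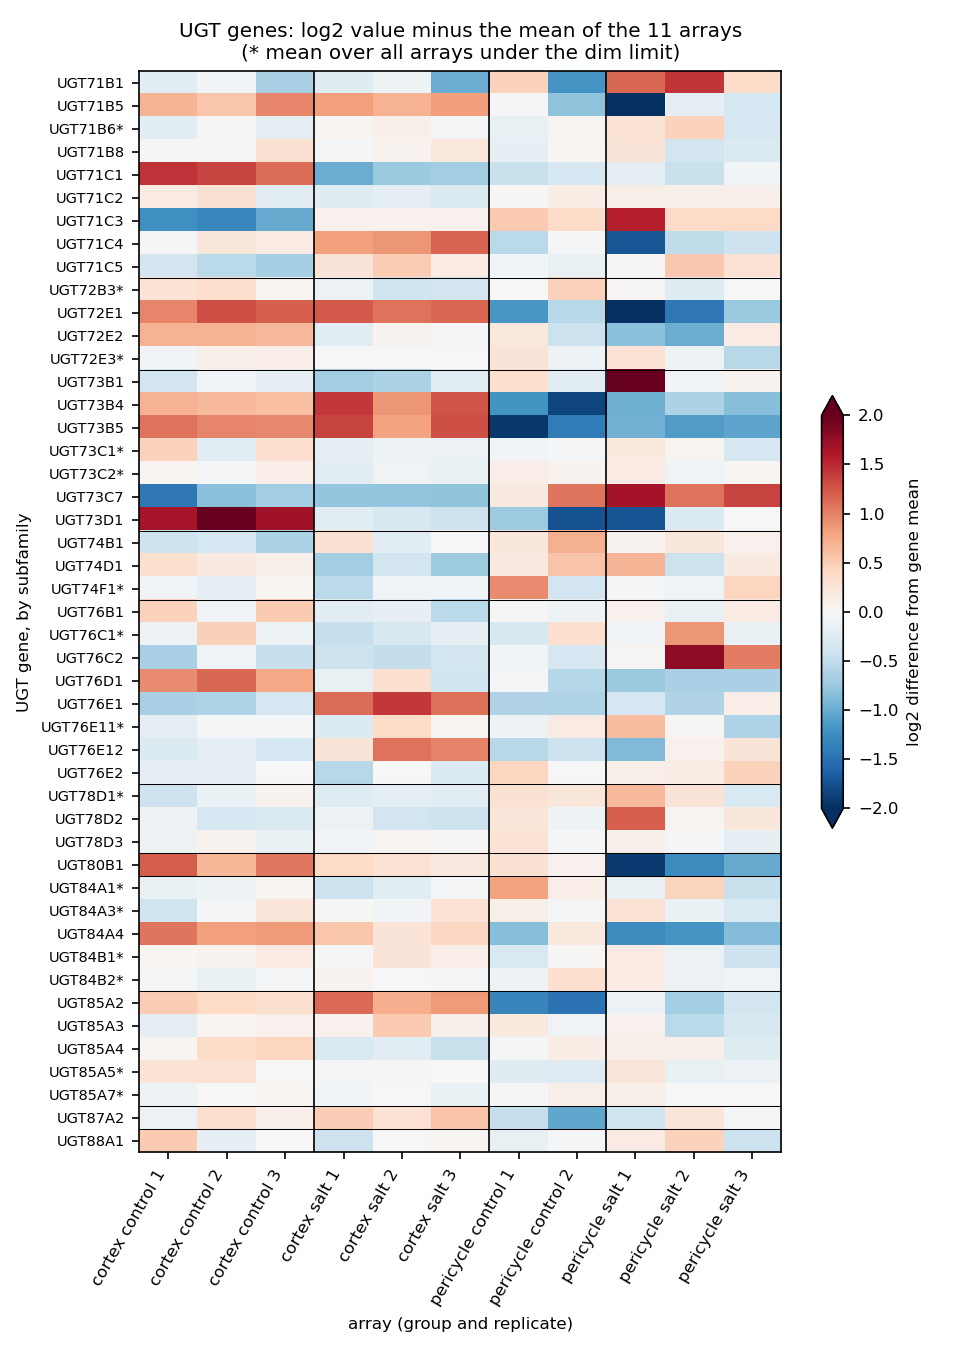
Log2 value of each of the 47 UGT genes on each of the 11 arrays, minus the mean of the gene over all arrays, with genes ordered by subfamily (rows) and arrays by group (columns); colours stop at 2 and -2 and an asterisk marks the 15 dim genes. UGT73B4, UGT73B5, UGT72E1 and UGT85A2 are higher in all cortex columns, UGT73C7 in all pericycle columns, and UGT71C1 and UGT73D1 are high in the 3 cortex control columns only.

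The UGT71 subfamily, with 9 measured genes, had calls in both directions for salt in cortex: UGT71C3 and UGT71C5 rose and UGT71C1 fell. UGT71C1 encodes an enzyme that glucosylates flavonols and hydroxycinnamic acids in vitro. Its values were 4.88, 4.79 and 4.56 in cortex control, 2.45, 2.69 and 2.75 in cortex salt, 2.99 and 3.10 in pericycle control and 3.25, 2.99 and 3.38 in pericycle salt arrays. Only the cortex control arrays were high, and they overlapped with no other array. Salt lowered UGT71C1 in cortex by 4.32-fold (log2 difference -2.11 ± 0.166, SE, n = 3 and 3, adjusted p = 1.26e-04), to a mean of 2.63 that is under the dim limit. In pericycle the difference was 0.16 ± 0.185 (n = 2 and 3, adjusted p = 0.753). The pericycle control mean was 3.05, near that limit, where a fall can be understated. The responses differed by 2.28 ± 0.249 (adjusted p = 4.19e-03), and this held under every alternative run. Without salt UGT71C1 was lower in pericycle than in cortex by a log2 difference of -1.70 ± 0.185 (adjusted p = 3.00e-04). With salt it was higher, by 0.58 ± 0.166 (adjusted p = 0.0365), a call that 12 of the alternatives did not make, among them the fits without cortex control replicate 2, any 1 cortex salt array, or pericycle salt replicate 1 or 3 (adjusted p 0.0599 to 0.152). UGT71C2, its neighbour on chromosome 2, differed by -0.33 ± 0.162 with salt in cortex and by 0.02 ± 0.181 in pericycle, and neither passed.

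UGT71C3, UGT71C4 and UGT71C5 neighbour each other on chromosome 1. UGT71C5 forms the glucose ester of abscisic acid, the hormone of water deficit, and UGT71C3 glucosylates methyl salicylate. UGT71C3 read 3.77, 3.70 and 4.00 in cortex control and 5.09 on each of the 3 cortex salt arrays, a rise of 1.27 ± 0.281 (log2, adjusted p = 0.0349). In pericycle it was 5.52 and 5.39 without salt and 6.56, 5.39 and 5.40 with salt, with a difference of 0.33 ± 0.315 (adjusted p = 0.692). Without salt, then, the pericycle arrays lay above all cortex arrays, by 1.63 ± 0.315 (adjusted p = 6.74e-03). UGT71C5 read 4.25, 4.08 and 3.95 in cortex control and 4.88, 5.13 and 4.78 in cortex salt arrays, and rose by 0.83 ± 0.177 (adjusted p = 0.0285). Its pericycle values were 4.56 and 4.47 without salt and 4.64, 5.15 and 4.91 with it, a difference of 0.38 ± 0.198 (adjusted p = 0.392). The salt arrays were above the control arrays in both cell types. The cortex calls of UGT71C3 and UGT71C5 were lost when any 1 of the 6 cortex arrays was left out (adjusted p 0.0823 to 0.134 and 0.0636 to 0.119). Both were also lost with a trend and robust prior (adjusted p = 0.058 and 0.128) and with the replicate number as a block (adjusted p = 0.0562 and 0.0577). UGT71C3 was lost with quantile normalization too (adjusted p = 0.0664). Both genes passed with only the cortex arrays fitted (adjusted p = 3.04e-04 and 4.08e-03).

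UGT71C4, which lies between them, read 6.36, 6.61 and 6.54 in cortex control, 7.20, 7.26 and 7.54 in cortex salt, 5.84 and 6.35 in pericycle control and 4.67, 5.88 and 5.97 in pericycle salt arrays. Cortex salt arrays were the highest and pericycle salt arrays included the lowest. With salt UGT71C4 was lower in pericycle than in cortex by a log2 difference of -1.83 ± 0.317 (adjusted p = 3.01e-03), also without pericycle salt replicate 1. Its salt differences were 0.83 ± 0.317 in cortex (adjusted p = 0.23) and -0.59 ± 0.354 in pericycle (adjusted p = 0.478), and the difference between these, -1.42 ± 0.475, did not pass (adjusted p = 0.229). The cortex rise passed without pericycle salt replicate 1 (adjusted p = 0.0198).

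Among the UGT71B genes, UGT71B6 and UGT71B8 belong to the group that glucosylates abscisic acid in Arabidopsis. Neither passed in any comparison, UGT71B6 was dim, and their salt differences ran from -0.07 to 0.17. The intervals for UGT71B6 were -0.30 to 0.62 in cortex and -0.34 to 0.69 in pericycle (95%). UGT71B1, their neighbour on chromosome 3, read 2.77, 2.94 and 2.35 in cortex control, 2.76, 2.90 and 2.01 in cortex salt, 3.46 and 1.81 in pericycle control and 4.15, 4.43 and 3.37 in pericycle salt arrays. The pericycle salt arrays were above all cortex arrays, while the pericycle control arrays lay far apart. With salt it was higher in pericycle than in cortex by 1.43 ± 0.436 (adjusted p = 0.0482). That call was lost without any 1 of the 6 cortex arrays or without pericycle salt replicate 1 or 2 (adjusted p 0.0669 to 0.178), and with quantile normalization (adjusted p = 0.0653). The salt difference in pericycle, 1.35 ± 0.488, was the largest of any UGT gene that did not pass there (adjusted p = 0.207), and it rested on the control arrays: it was 2.18 without pericycle control replicate 1 (adjusted p = 0.0317) and 0.52 without replicate 2 (adjusted p = 0.697). UGT71B5 missed the threshold between the cell types with salt, at -2.02 ± 0.648 (adjusted p = 0.0584). Its pericycle salt arrays read 3.62, 6.61 and 6.44, all below the cortex salt arrays at 7.61, 7.48 and 7.63, with replicate 1 the lowest.

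In the UGT73 subfamily, with 7 measured genes, 4 genes differed between the cell types, and 3 of them with and without salt. UGT73B4 and UGT73B5 are neighbours on chromosome 2 and belong to a group of genes known to respond to pathogens and oxidative stress. UGT73B4 read 8.31, 8.27 and 8.22 in cortex control, 9.04, 8.50 and 8.88 in cortex salt, 6.42 and 5.79 in pericycle control and 6.64, 6.98 and 6.77 in pericycle salt arrays. UGT73B5 read 8.32, 8.22 and 8.20, then 8.60, 8.05 and 8.53, then 5.31 and 5.84, and 6.28, 6.12 and 6.19 in the same order of groups. In both genes every cortex array was above every pericycle array, with and without salt. Pericycle was lower than cortex by a log2 difference of -2.16 ± 0.231 for UGT73B4 and -2.67 ± 0.218 for UGT73B5 without salt (adjusted p = 2.56e-04 and 6.20e-05), and of -2.01 ± 0.206 and -2.20 ± 0.195 with salt (adjusted p = 1.35e-04 and 5.63e-05). All of these calls held under every alternative run. No salt response passed in the full fit: in pericycle the differences were 0.69 ± 0.231 and 0.61 ± 0.218 (adjusted p = 0.174 and 0.2), with the salt arrays above the control arrays. In cortex the UGT73B4 difference of 0.54 ± 0.206 passed with only the cortex arrays fitted (adjusted p = 0.0394).

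UGT73C7, an enzyme of hydroxycinnamic acid glucosylation in plant immunity, and UGT73D1, whose acceptor is not described here, are neighbours on chromosome 3 and had opposite cell-type patterns. UGT73C7 read 2.91, 3.50 and 3.64 in cortex control, 3.56, 3.56 and 3.53 in cortex salt, 4.52 and 5.41 in pericycle control and 6.00, 5.43 and 5.69 in pericycle salt arrays. All pericycle arrays were above all cortex arrays, by 1.62 ± 0.3 without salt (adjusted p = 5.53e-03) and 2.15 ± 0.269 with salt (adjusted p = 4.26e-04). UGT73D1 read 5.18, 5.63 and 5.22 in cortex control, 3.31, 3.22 and 3.12 in cortex salt, 2.82 and 1.80 in pericycle control and 1.81, 3.27 and 3.55 in pericycle salt arrays. Its cortex control arrays were above all others, as for UGT71C1. In cortex salt lowered UGT73D1 by 4.37-fold (log2 difference -2.13 ± 0.42, adjusted p = 0.0206), a call lost without any 1 of the 6 cortex arrays (adjusted p 0.0663 to 0.0985) although the log2 difference stayed between -2.21 and -1.98 there. It passed with only the cortex arrays fitted (adjusted p = 5.83e-05). Without salt it was lower in pericycle by a log2 difference of -3.03 ± 0.47 (adjusted p = 2.07e-03), the largest cell-type difference of the family, and with salt the difference was -0.34 ± 0.42 (adjusted p = 0.666). The responses to salt differed by 2.69 ± 0.631, which did not pass (adjusted p = 0.0915) but did without pericycle salt replicate 1 (3.23, adjusted p = 8.03e-03) and without pericycle control replicate 1 (3.20, adjusted p = 0.0458). Without any other single array it was 2.19 to 2.78 (adjusted p 0.0824 to 0.227). UGT73B1 read 5.12, 3.05 and 3.17 in pericycle salt arrays and 2.41 to 3.45 on the arrays of the other groups, so 1 array set its group mean. UGT73C1 and UGT73C2, neighbours on chromosome 2, were dim.

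**Figure D2:**
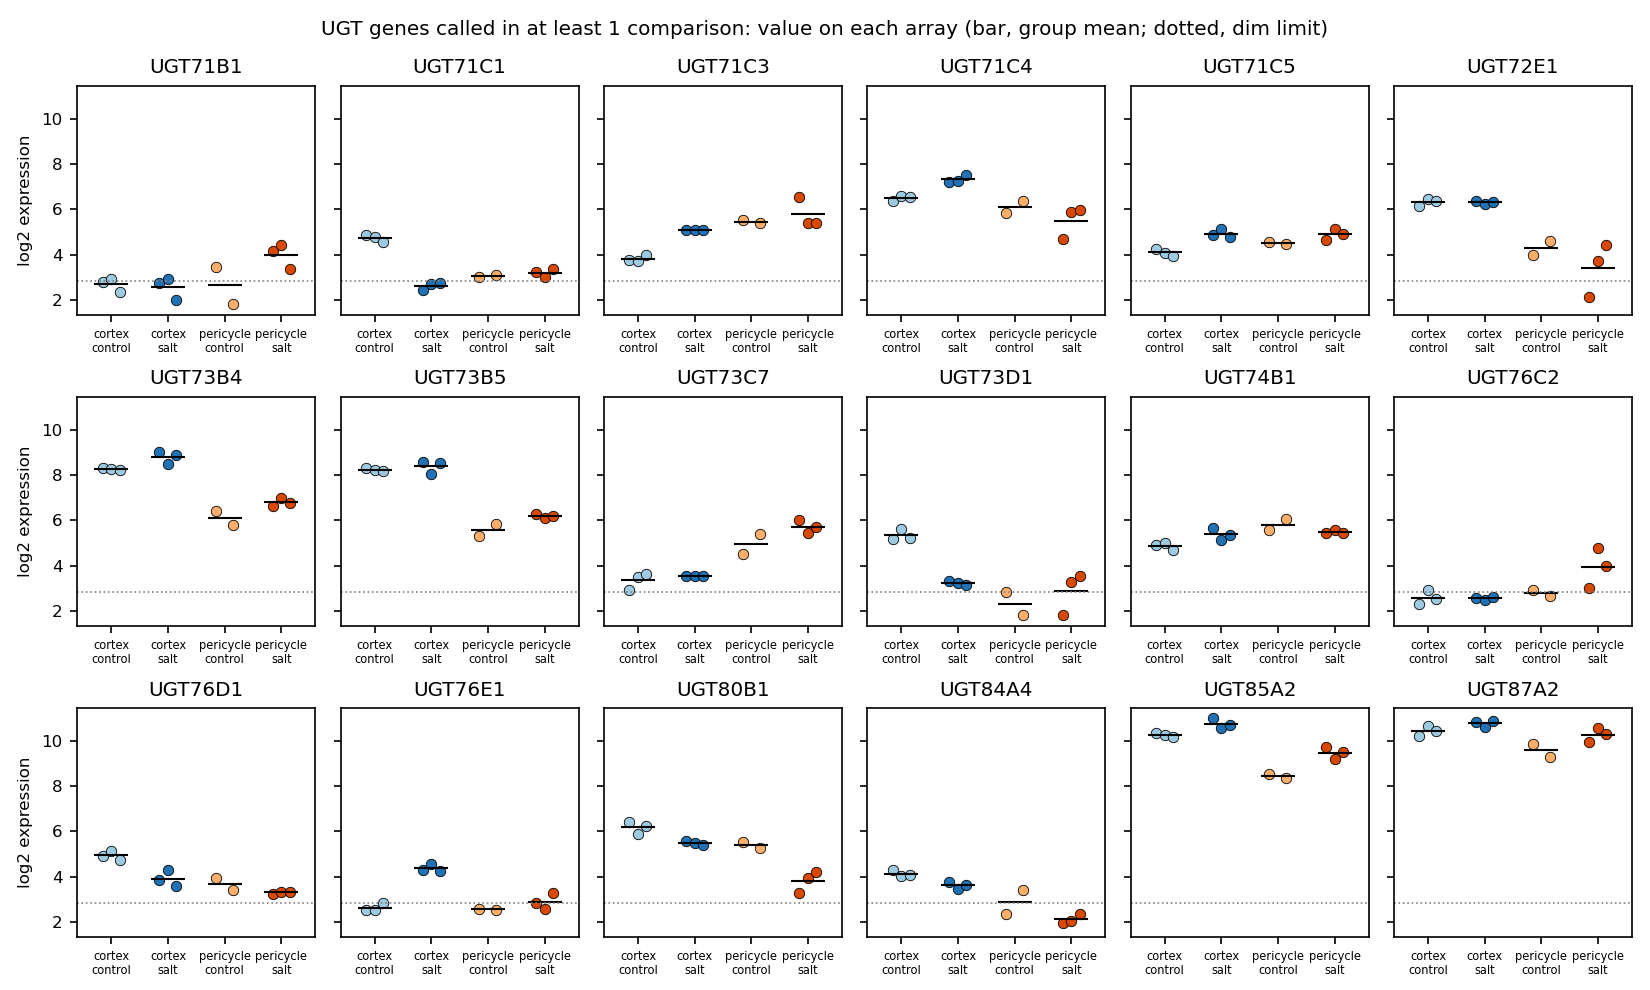
Log2 expression on each array (points) and group mean (bar) for the 18 UGT genes that passed in at least 1 comparison, by group, with the dim limit of 2.81 as a dotted line. UGT71C1 and UGT73D1 are high in cortex control arrays, UGT76E1 in cortex salt arrays, and UGT73B4, UGT73B5 and UGT85A2 in both cortex groups.

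The UGT76 subfamily had 8 measured genes, and with salt in cortex UGT76E1 rose and UGT76D1 fell. UGT76E1 glucosylates a hydroxylated form of jasmonic acid, a step in turnover of this wound hormone. It read 2.50, 2.53 and 2.82 in cortex control, 4.27, 4.57 and 4.26 in cortex salt, 2.55 and 2.54 in pericycle control and 2.82, 2.55 and 3.28 in pericycle salt arrays. The cortex salt arrays stood above all others. The rise in cortex was 3.36-fold (log2 difference 1.75 ± 0.203, adjusted p = 1.20e-03), from a control mean of 2.61 under the dim limit. With salt, pericycle was lower by a log2 difference of -1.48 ± 0.203 (adjusted p = 7.64e-04), and both calls held under every alternative run. The pericycle response was 0.33 ± 0.227 (adjusted p = 0.545), and the difference between the responses, -1.41 ± 0.305, did not pass (adjusted p = 0.0708) except without pericycle salt replicate 3 (-1.61, adjusted p = 0.0214), and was -1.52 to -1.25 without any other single array (adjusted p 0.0676 to 0.175). UGT76E2, its neighbour on chromosome 5, differed by -0.16 ± 0.196 with salt in cortex (adjusted p = 0.881).

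UGT76E12, on chromosome 3, read 3.26, 3.35 and 3.19 in cortex control and 3.80, 4.63 and 4.53 in cortex salt arrays. These groups did not overlap, but the difference of 1.05 ± 0.309 did not pass (adjusted p = 0.107), the largest of a UGT gene that missed the threshold in cortex. With only the cortex arrays fitted it passed (adjusted p = 8.56e-03). In pericycle UGT76E12 read 2.99 and 3.11 without salt and 2.65, 3.62 and 3.80 with it. Its neighbour UGT76E11, an enzyme of flavonoid glucosylation tied to salt tolerance when overexpressed, was dim, with salt differences of 0.15 ± 0.29 in cortex and -0.03 ± 0.324 in pericycle.

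UGT76D1 glucosylates dihydroxybenzoic acids, breakdown products of salicylic acid. It read 4.93, 5.13 and 4.75 in cortex control, 3.83, 4.30 and 3.58 in cortex salt, 3.94 and 3.41 in pericycle control and 3.24, 3.34 and 3.34 in pericycle salt arrays. Cortex control arrays were above all others. Salt lowered it in cortex by a log2 difference of -1.03 ± 0.218 (adjusted p = 0.0282). Without salt it was lower in pericycle by -1.26 ± 0.244 (adjusted p = 6.84e-03). The cortex call was lost without any 1 cortex control array or cortex salt replicate 1 or 3 (adjusted p 0.059 to 0.136), and the cell-type call without pericycle control replicate 2 (adjusted p = 0.0524). With only the cortex arrays fitted, the fall in cortex passed (adjusted p = 6.70e-03). The fall did not pass with a trend and robust prior or with the replicate number as a block (adjusted p = 0.0711 and 0.0532).

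UGT76B1, which conjugates salicylic acid and N-hydroxypipecolic acid, gave values of 10.1, 9.57 and 10.16 in cortex control, 9.41, 9.48 and 9.11 in cortex salt, 9.66 and 9.54 in pericycle control and 9.72, 9.50 and 9.81 in pericycle salt arrays. Its cortex salt arrays were below its cortex control arrays, by -0.61 ± 0.195 (adjusted p = 0.138). This passed with only the cortex arrays fitted (adjusted p = 0.0456). UGT76C1 and UGT76C2 attach glucose to the purine ring of cytokinins and are neighbours on chromosome 5. UGT76C2 read 2.32, 2.90 and 2.52 in cortex control, 2.55, 2.49 and 2.61 in cortex salt, 2.92 and 2.64 in pericycle control and 3.00, 4.77 and 3.99 in pericycle salt arrays. The pericycle salt arrays were the highest but lay far apart. With salt UGT76C2 was higher in pericycle than in cortex by 1.37 ± 0.368 (adjusted p = 0.0278). The call was lost without any 1 cortex salt array or pericycle salt replicate 2 or 3 (adjusted p 0.0555 to 0.0855), and with only the arrays compared (adjusted p = 0.0875). The salt difference in pericycle, 1.14 ± 0.411, did not pass (adjusted p = 0.206). It was 1.60 without pericycle salt replicate 1 (adjusted p = 0.0189) and 0.71 without replicate 2 (adjusted p = 0.301). UGT76C1 was dim, and its largest difference between groups was 0.55 ± 0.296, between the cell types with salt (adjusted p = 0.256).

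UGT72E and UGT84A enzymes serve phenylpropanoid metabolism. UGT72E1, UGT72E2 and UGT72E3 glucosylate monolignols and their aldehydes, the precursors of lignin, and UGT84A enzymes form glucose esters of hydroxycinnamic acids. Of 6 measured genes with these roles, 2 were lower in pericycle than in cortex in both conditions, and none passed with salt in either cell type. UGT72E1 read 6.14, 6.45 and 6.35 in cortex control, 6.38, 6.24 and 6.31 in cortex salt, 4.00 and 4.60 in pericycle control and 2.13, 3.72 and 4.41 in pericycle salt arrays. The pericycle arrays were below all cortex arrays, and cortex means were the same with and without salt, at 6.31. The log2 difference between the cell types was -2.01 ± 0.518 without salt (adjusted p = 0.0269) and -2.89 ± 0.463 with salt (adjusted p = 1.94e-03). The first of these was lost without any 1 of the control arrays of either cell type (adjusted p 0.0543 to 0.134), and the second held under every alternative run. UGT84A4 read 4.29, 4.04 and 4.07 in cortex control, 3.77, 3.47 and 3.63 in cortex salt, 2.36 and 3.42 in pericycle control and 1.95, 2.04 and 2.35 in pericycle salt arrays. The cortex control arrays were the highest, then the cortex salt arrays, and all pericycle salt arrays were under the dim limit. The cell-type difference was -1.24 ± 0.282 without salt (adjusted p = 0.0149). The call was lost without cortex control replicate 1 (adjusted p = 0.0534) and with only the arrays compared (adjusted p = 0.0602). Without pericycle control replicate 1, which leaves 1 pericycle control array, the call was lost as well, at a log2 difference of -0.71. With salt the cell-type difference was -1.51 ± 0.252 (adjusted p = 2.47e-03). The salt differences were -0.51 ± 0.252 in cortex (adjusted p = 0.403) and -0.78 ± 0.282 in pericycle (adjusted p = 0.208), and the latter was -1.31 without pericycle control replicate 1 (adjusted p = 0.0164) and -0.25 without replicate 2 (adjusted p = 0.717). The neighbours of UGT84A4 on chromosome 4, UGT84A1 and UGT84A3, were dim.

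UGT72E2, the enzyme of coniferyl alcohol glucoside formation, read 9.49, 9.50 and 9.45 in cortex control, 8.58, 8.87 and 8.77 in cortex salt, 9.01 and 8.37 in pericycle control and 7.96, 7.81 and 8.97 in pericycle salt arrays. The cortex control arrays were above the rest. The salt difference in cortex, -0.74 ± 0.291, did not pass in the full fit (adjusted p = 0.252) and did with only the cortex arrays (adjusted p = 3.77e-03). UGT72E3 was dim, with differences from -0.21 to 0.02.

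Among the UGT85 genes, UGT85A2 was the only one of 5 that passed. It read 10.37, 10.26 and 10.19 in cortex control, 11.00, 10.59 and 10.72 in cortex salt, 8.54 and 8.38 in pericycle control and 9.75, 9.19 and 9.50 in pericycle salt arrays. The 4 groups did not overlap at all, in the order pericycle control, pericycle salt, cortex control and cortex salt. In pericycle salt raised UGT85A2 by 1.02 ± 0.204 (log2, n = 2 and 3, adjusted p = 0.0374), and in cortex the difference was 0.50 ± 0.183 (adjusted p = 0.208). The difference between these responses, 0.52 ± 0.274, did not pass (adjusted p = 0.505). Pericycle was lower than cortex by a log2 difference of -1.81 ± 0.204 without salt (adjusted p = 3.53e-04) and -1.29 ± 0.183 with salt (adjusted p = 9.05e-04), calls that held under every alternative run. The salt call in pericycle was lost without any 1 of the cortex arrays or without pericycle control replicate 2 (adjusted p 0.0629 to 0.106), with array weights (adjusted p = 0.303), with only the pericycle arrays fitted (adjusted p = 0.6), without dim probe sets (adjusted p = 0.0504) and with the replicate number as a block (adjusted p = 0.0535). UGT85A3, UGT85A5 and UGT85A7 lie in the same run of neighbours on chromosome 1. Both UGT85A5 and UGT85A7 were dim, and the salt differences of the 3 ran from -0.32 to 0.26. UGT85A4, elsewhere on that chromosome, differed by -0.60 ± 0.171 with salt in cortex (adjusted p = 0.0923).

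UGT80B1 is a sterol glucosyltransferase, known as TT15 for its role in the seed coat, and differs in acceptor and sequence from the other members. It read 6.41, 5.87 and 6.25 in cortex control, 5.59, 5.49 and 5.38 in cortex salt, 5.51 and 5.28 in pericycle control and 3.29, 3.93 and 4.19 in pericycle salt arrays. The salt arrays were below the control arrays in both cell types. In pericycle salt lowered it by 3.01-fold (log2 difference -1.59 ± 0.267, adjusted p = 0.0204), and the call held whichever single array was left out. It was lost with only the pericycle arrays fitted (adjusted p = 0.56), with array weights (adjusted p = 0.128) and with the replicate number as a block (adjusted p = 0.0542). In cortex the difference was -0.69 ± 0.239 (adjusted p = 0.179), which passed without pericycle salt replicate 1 (adjusted p = 0.0427), and the responses differed by -0.90 ± 0.359 (adjusted p = 0.331). With salt UGT80B1 was lower in pericycle than in cortex by a log2 difference of -1.68 ± 0.239 (adjusted p = 9.42e-04). Without salt this difference was -0.78 ± 0.267 (adjusted p = 0.0828), and it passed without pericycle salt replicate 1 (adjusted p = 0.0177).

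UGT74B1 carries out the glucosylation step of glucosinolate synthesis. It read 4.93, 5.00 and 4.71 in cortex control, 5.65, 5.13 and 5.36 in cortex salt, 5.57 and 6.06 in pericycle control and 5.42, 5.57 and 5.44 in pericycle salt arrays. The cortex control arrays were below all others. Without salt it was higher in pericycle by 0.94 ± 0.212 (adjusted p = 0.0149), and with salt the difference was 0.09 ± 0.189 (adjusted p = 0.811). The former call was lost without cortex control replicate 3 (adjusted p = 0.055), with array weights (adjusted p = 0.0713) and with a trend and robust prior (adjusted p = 0.0538). Without pericycle control replicate 2, which leaves 1 pericycle control array, the call was lost as well, at a log2 difference of 0.69. UGT87A2, known for effects on flowering time and stress tolerance, read 10.22, 10.66 and 10.44 in cortex control, 10.82, 10.62 and 10.90 in cortex salt, 9.87 and 9.29 in pericycle control and 9.94, 10.58 and 10.30 in pericycle salt arrays. The pericycle control arrays were the lowest. Its cell-type difference without salt was -0.86 ± 0.248 (adjusted p = 0.0433), lost without any 1 of the 6 cortex arrays, pericycle control replicate 2 or pericycle salt replicate 3 (adjusted p 0.0505 to 0.258). Its log2 difference without pericycle control replicate 2 was -0.57. The UGT87A2 call was also lost with only the arrays compared, array weights, quantile normalization and the replicate number as a block (adjusted p 0.0513 to 0.105).

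UGT genes of hormone conjugation were counted next. For abscisic acid, 1 of 3 measured genes, UGT71C5, rose with salt in cortex and none passed in pericycle. For auxin, none of 3 measured genes, UGT74D1, UGT84B1 and UGT84B2, passed in any comparison. UGT84B1 and UGT84B2, neighbours on chromosome 2, were dim, and UGT74D1, which was not, read 4.31, 4.17 and 4.10 in cortex control and 3.30, 3.63 and 3.28 in cortex salt arrays. These groups did not overlap, the difference was -0.79 ± 0.26 (adjusted p = 0.155), and with only the cortex arrays fitted it passed (adjusted p = 4.84e-03). For cytokinins, 1 of 3, UGT76C2, passed, between the cell types with salt. Of 3 measured genes on the list for salicylic acid, its benzoate derivatives or N-hydroxypipecolic acid, UGT76D1 fell with salt in cortex. That list does not hold UGT71C3, the methyl salicylate enzyme, which rose there, and no list held UGT76E1, the hydroxyjasmonate enzyme, which also rose there. Neither gene of brassinosteroid conjugation on the list had a probe set of its own.

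On the list of flavonoid glycosylation genes, 4 of 11 were measured: UGT71C1, described above, and the UGT78D genes. UGT78D1, UGT78D2 and UGT78D3 add rhamnose, glucose and arabinose to flavonols, and none passed in any comparison. Their salt differences ran from -0.06 to 0.07 in cortex, where the widest interval was -0.68 to 0.55 for UGT78D2 (95%). In pericycle they ran from -0.16 to 0.42. UGT78D2 came nearest to the threshold between the cell types with salt, at 0.79 ± 0.277 (adjusted p = 0.0777), and its pericycle salt arrays read 5.48, 4.33 and 4.50. UGT88A1, the only measured gene of its subfamily, differed by at most 0.40 between groups or responses.

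The salt responses of the cell types were then set side by side. No UGT gene passed in both. Over all probe sets 78 passed in both, or 8.25% of those called in cortex and 17.2% of those called in pericycle. With 6 and 2 UGT calls, nothing particular to the family is read from this. Of the 47 genes, 24 (51.1%) had the same sign in both cell types, against 55.4% of all probe sets, and Pearson's r across the genes was 0.168, against 0.244 over all probe sets. Genes share the arrays and are not independent replicates, so r only describes this set. The 3 genes that rose in cortex, UGT71C3, UGT71C5 and UGT76E1, had pericycle differences of 0.33, 0.38 and 0.33 that did not pass. Of the 3 that fell in cortex, UGT76D1 had a pericycle difference of -0.37, while UGT71C1 and UGT73D1 were at 0.16 and 0.57. A difference between the responses passed for UGT71C1 alone. In simulated data with the same spread in all groups, this test found 5% of log2 differences of 1 and 44% of those of 2. The other genes are thus not shown to respond alike.

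**Figure D3:**
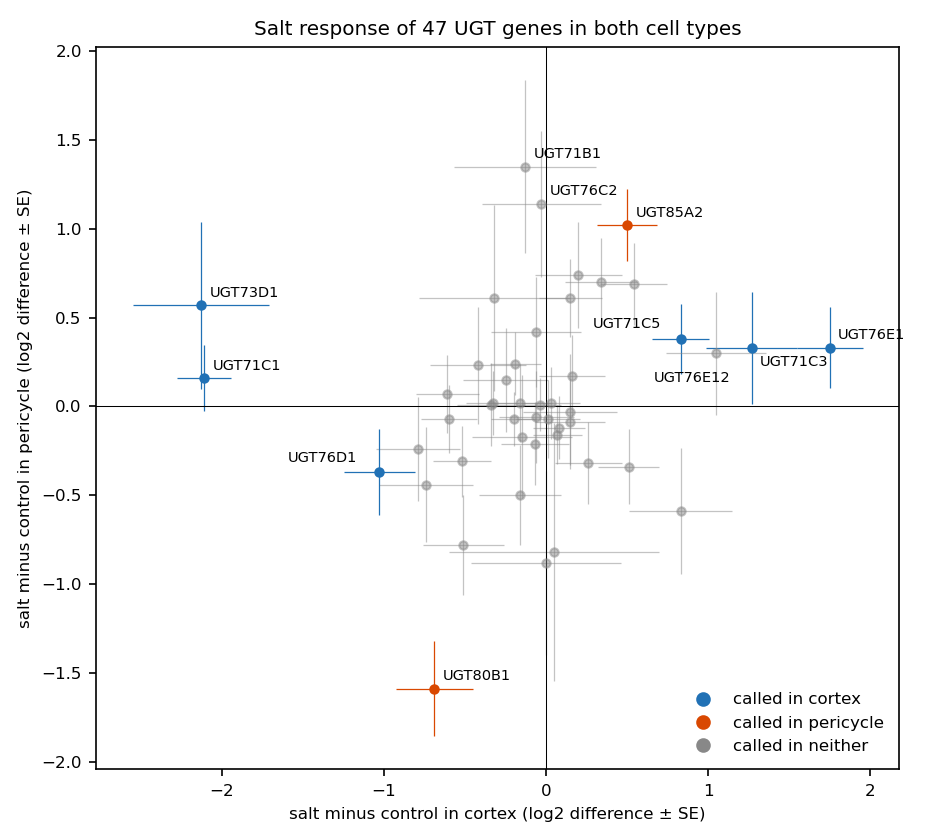
Salt minus control in cortex (horizontal) and in pericycle (vertical) for the 47 UGT genes, as log2 differences with SE bars, coloured by the cell type in which the gene passed. UGT71C1 and UGT73D1 lie far to the left with pericycle differences of 0.16 and 0.57, and UGT80B1 lies lowest at -1.59.

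The differences between cell types were set side by side in the same way. Of 12 UGT genes that passed without salt and 12 that passed with it, 7 passed in both (58.3% of each list), and 6 of the 7 in the same direction: UGT73B4, UGT73B5, UGT72E1, UGT84A4 and UGT85A2, lower in pericycle, and UGT73C7, higher. Over all probe sets, 1971 passed in both, or 58.2% and 48.5% of the lists. The seventh UGT gene, UGT71C1, changed direction, but 12 of the alternatives did not make its call with salt. Its cortex salt mean of 2.63 was under the dim limit. Both comparisons use the same estimate of spread for a gene.

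**Figure D4:**
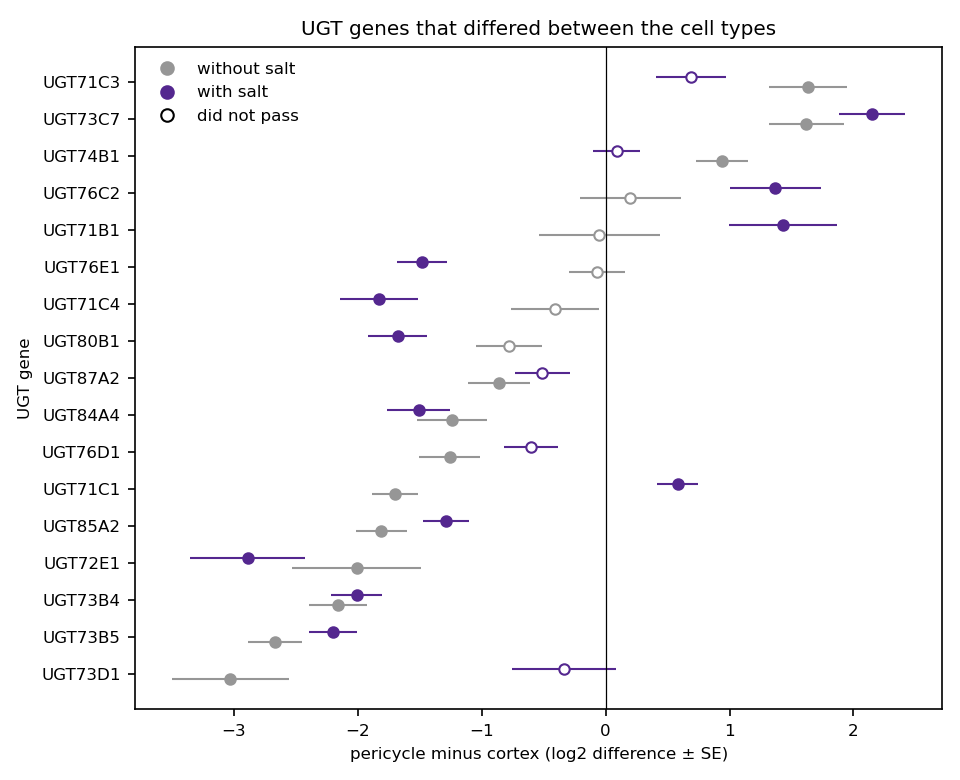
Pericycle minus cortex, as log2 difference with SE, for the UGT genes that passed without salt (grey) or with salt (purple), with open points where a gene did not pass. UGT73B5 is at -2.67 and -2.20 and UGT73C7 at 1.62 and 2.15, while UGT71C1 is at -1.70 without and 0.58 with salt.

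Position on the chromosome was compared with these patterns, using gene order in the RefSeq annotation. Of the 47 genes, 31 lay in 13 runs in which each member was at most 3 protein-coding genes from the next. UGT73B4 and UGT73B5 passed in the same comparisons and directions. In the run of UGT71C3, UGT71C4 and UGT71C5, all 3 cortex salt differences were positive (1.27, 0.83 and 0.83), and 2 passed. In other runs the calls were unequal: UGT73D1 was lower and UGT73C7 higher in pericycle without salt, UGT71C1 passed in 4 comparisons and UGT71C2 in none, and UGT85A2 passed in 3 and its 3 neighbours in none. In 4 of the 13 runs no member passed in any comparison. Differences between neighbours were not tested. Binding of the RNA of a close relative to a probe set was not tested either.

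**Figure D5:**
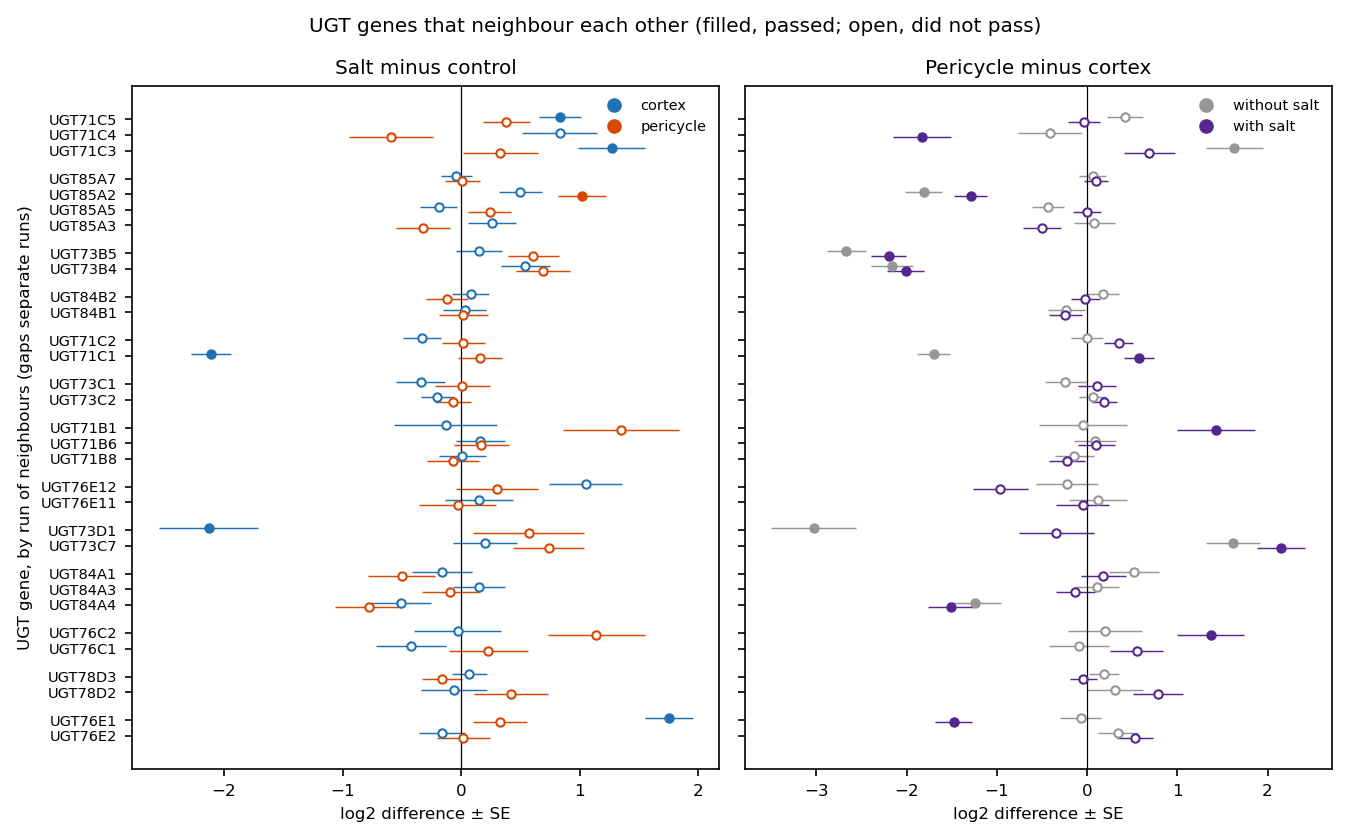
Log2 differences with SE for the 31 UGT genes in 13 runs of neighbours, salt minus control on the left (cortex blue, pericycle orange) and pericycle minus cortex on the right (grey without, purple with salt), with filled points for genes that passed. UGT73B4 and UGT73B5 lie close together in all 4 comparisons, while UGT73D1 and UGT73C7 lie on opposite sides of 0 without salt.

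Genes that work with UGT enzymes were described from other lists. Beta-glucosidases remove the sugars that UGT enzymes add. Of 22 measured beta-glucosidase genes, BGLU15 fell with salt in cortex (-1.64 ± 0.205, adjusted p = 1.84e-03) and BGLU40 rose in pericycle (2.63 ± 0.343, adjusted p = 9.87e-03), with list medians of -0.01 and -0.03. The salt responses of both genes differed between the cell types. Without salt 2 of the 22 were lower in pericycle than in cortex and none higher, and with salt 4 were higher and 3 lower. Over all probe sets, 14.9% passed between the cell types without salt and 17.9% with salt. With salt in cortex 4.16% passed, and in pericycle 1.99%. The counts of this list and of those below are to be read beside these shares, and nothing particular to a list is read from them. Glutathione transferases conjugate foreign and reactive compounds in parallel with UGT enzymes. Of 12 measured, GSTU28 fell with salt in cortex (-2.03 ± 0.412, adjusted p = 0.0235), and none passed in pericycle. Between the cell types the calls went both ways. Without salt GSTU18 was higher in pericycle (2.23 ± 0.494, adjusted p = 0.0135) and GSTU22 lower (-1.99 ± 0.265, adjusted p = 9.27e-04). With salt GSTU18 and GSTU20 were higher (3.65 ± 0.442 and 3.56 ± 0.469) and GSTU22 lower (-2.07 ± 0.237). Of 3 measured genes of flavonoid synthesis, CHIL, a chalcone isomerase-like gene that aids flavonoid production, fell with salt in pericycle by a log2 difference of -2.17 ± 0.389 (adjusted p = 0.0261), from a mean of 5.64 to 3.47, and was higher in pericycle than in cortex without and with salt (2.64 and 1.29). Genes for UDP-sugar supply and for the rest of glucosinolate synthesis had 1 measured gene each, and TGA transcription factors none. The glucosinolate gene, BCAT4, was higher in pericycle without and with salt (2.00 and 2.82). The salt calls of BGLU40 and CHIL in pericycle were lost with only the pericycle arrays fitted, where 0 of all probe sets passed.

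Markers of another cell type moved with salt in cortex beside the UGT genes that fell there. Of 8 listed root hair markers 4 were measured, and their mean on an array was 5.06 to 5.40 in cortex control and 3.09 to 3.87 in cortex salt samples. In pericycle it was 4.14 to 4.52 without and 2.80 to 4.27 with salt. Of the 4, AT4G08410 and AT1G30870 fell with salt in cortex (-2.10 and -1.65), AT4G08410 also fell in pericycle, AT1G30870 was lower in pericycle without salt, and none was dim. Root hairs belong to the epidermis and to neither sorted type, and their part in the values of the UGT genes, among them UGT71C1, UGT73D1 and UGT76D1, was not tested. OPS, the one phloem marker measured, was higher in pericycle arrays (5.66 to 7.80) than in cortex arrays (3.99 to 4.49), and its part in the cell-type differences was not tested. The one endodermis marker measured, AT2G39430, read 5.42 in pericycle control replicate 2 and 1.78 to 2.49 on every other array. Its part in the UGT values that rest on that array was not tested.

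The number of UGT genes called for salt in cortex depended on which arrays set the spread. When the cortex arrays alone were fitted, 17 of 47 passed (36.2%, against 19.7% of all probe sets), 7 up and 10 down, and these held all 6 genes called in the full fit. The other 11 were UGT71C4, UGT72B3, UGT72E2, UGT73B4, UGT74D1, UGT76B1, UGT76E12, UGT80B1, UGT84A4, UGT85A2 and UGT85A4, with differences of -0.79 to 1.05. Without pericycle salt replicate 1 the count was 10, and without any 1 cortex array it was 2 or 3. Over all probe sets the calls were 1701 and 362 to 546 there, against 946 in the full fit. For salt in pericycle, no UGT gene passed with only the pericycle arrays fitted, where limma called 0 of all probe sets. None passed with array weights either, where limma called 32 of all probe sets. In the full fit 9 of the 47 genes had an unadjusted p under 0.05 for salt in pericycle (19.1%, against 16% of all probe sets).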

How the data were processed

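RNA of sorted cortex and pericycle protoplasts was measured on 11 Affymetrix arrays. The authors deposited log2 expression values for 22810 probe sets; per the submitters' processing notes RMA and limma were used, without versions or roles given, and the values themselves showed the log2 scale. No source used here tells how low values were made. They were used as deposited, without the 64 array control probe sets. Genes came from the platform's probe table, with 13513 probe sets naming a single gene, and symbols were matched by gene ID to RefSeq (all 47 UGT genes matched). No sequences or coordinates are printed.

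A single model for the 11 arrays was fitted with limma 3.58.1 (R 4.3.3; lmFit, contrasts.fit, eBayes) with 4 group means, 7 residual and 2.96 prior degrees of freedom. P values are two-sided and adjusted by Benjamini-Hochberg over 22746 probe sets within a comparison. Errors of differences are limma standard errors, and a gene passed at an adjusted p under 0.05. Values by array are given for UGT genes that passed in any comparison, the 5 with the highest mean, and the largest that missed in each salt comparison; any other array values were chosen after they were seen. The members and lists were chosen with earlier results of these data known. The symbol CHI, which here names a chitinase, was dropped from the flavonoid list. Replicates are separate tanks, and array number limits precision.

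The procedure was tested on simulated data with the same spread in all groups. Of log2 differences of 1 and 2, it found 31% and 82% for salt in cortex and 22% and 65% for salt in pericycle. Between the cell types it found 17% and 71% without salt and 33% and 76% with salt. For the difference of responses it found 5% and 44%. A gene that did not pass is thus not shown to be unchanged. Simulated calls between the cell types were 98 and 118, against 3387 and 4066 in the data. The shares found need not hold for the data, where pericycle arrays also varied more than cortex arrays. Alternatives were fitting only the arrays compared, array weights, a trend and robust prior, quantile normalization, leaving out dim probe sets, a replicate block, a fold limit, another probe set per gene, and leaving out each array.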

Additional observations from a re-analysis of the deposited data

Results flagged for a closer look

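The salt response of UGT71C1 differed between the cell types in a direct test of the difference, which limma put at 2.28 ± 0.249 (log2, pericycle minus cortex, adjusted p = 4.19e-03). UGT71C1 fell by 2.11 in cortex and had a difference of 0.16 in pericycle. Its pericycle control mean was 3.05, near the dim limit of 2.81, where a fall can be understated. It was the only UGT gene of 47 for which this test passed. Groups of 2 or 3 arrays were too small for the search for single outlying arrays.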

How the results depend on the processing

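Arrays of the same number correlated in their residuals between -0.151 and 0.107 across groups, which shows no pairing by replicate number. Arrays of unlike number were not compared in this way, so the absence of pairing is not established. With the replicate block, UGT calls for salt were 3 in cortex and 0 in pericycle, and the other counts were 1, 11 and 13. Over all probe sets the same counts were 692, 194, 121, 2763 and 3730.

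For salt in cortex (6 calls) the count was 17 with only the arrays compared, 19 with array weights, 3 with a trend and robust prior, and 2 to 10 without a single array. Over all probe sets, 946 calls became 4487, 4775, 797 and 362 to 1701 in the same settings. For salt in pericycle (2 calls) it was 0 with only the arrays compared and with array weights, 1 without dim probe sets, and 1 to 4 without a single array, the highest without pericycle control replicate 1. For the difference of responses (1 call) the UGT count was 2 with array weights. It was 1 to 3 without a single cortex or pericycle salt array, the highest without pericycle salt replicate 1. Over all probe sets, 190 calls became 150 and 53 to 535 in the same settings. The counts for the cell types stayed within 1.5 times of 12 under every alternative, at 9 to 14. Over all probe sets, 3387 calls without salt became 2258 to 5007, and 4066 with salt became 2461 to 5192. No call changed direction under any alternative. Of the calls, 2 of 6 for salt in cortex, 0 of 2 for salt in pericycle, the single one for the difference, 7 of 12 without salt and 9 of 12 with salt held under every alternative. Fits without a pericycle control array leave 1 array there, assumed to vary like the others. Without dim probe sets the UGT median was 0.32 for the difference of responses and -0.21 between the cell types without salt, as 15 genes drop out. The alternative probe set changed nothing, since each gene had a single one, and fitting only the arrays compared is the same fit for the difference of responses. Arrays hold no detection calls here, so values near the dim limit of 2.81 carry the least information.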
